A study of Mus musculus with 16 samples.

Results

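The receptors described here are the 8 genes of the PPAR, RXR and LXR families of nuclear receptors, which were taken by gene symbol from the 23970 symbols of the deposited table. They comprise 3 PPAR genes (Ppara, Ppard and Pparg), 3 RXR genes (Rxra, Rxrb and Rxrg) and 2 LXR genes (Nr1h2, encoding LXRβ, and Nr1h3, encoding LXRα). All 8 were found, and all 8 passed the filter of a mean of at least 0.5 FPKM that left 11256 genes for testing. FPKM are fragments scaled to transcript length and to the mapped fragments of the library, a scale on which levels of different genes can be set side by side. RNA was from quadriceps of male C57BL/6NTac mice aged 16 weeks, with 4 libraries in each of 4 groups. CON-pre and HFD-pre mice had been fed a control or a high-fat diet and were sampled without exercise, whereas CON-post and HFD-post mice were sampled 3 h after a single treadmill run to exhaustion. Mice of all groups had been accustomed to the treadmill and fasted, runners received no food after the run, and muscles were taken under isoflurane. Whole quadriceps holds several fibre types together with vessels, connective tissue, fat cells and immune cells, and in such bulk RNA fewer cells of a type and less RNA per cell cannot be told apart. The labels do not say that libraries of a group came from separate mice, so p-values measure only the spread between these libraries.

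PPARs are transcription factors that are switched on by fatty acids and their derivatives. PPARα and PPARδ turn on genes of fatty acid uptake and oxidation in muscle, and PPARγ is best known as the regulator of fat cell formation. LXRs are sensors of oxidised cholesterol that turn on genes of cholesterol export and fatty acid synthesis. Both kinds of receptor bind DNA as pairs with an RXR, the receptor for 9-cis retinoic acid, at 2 copies of the hexamer AGGTCA. The copies are separated by 1 base for PPAR with RXR (a DR1 element) and by 4 bases for LXR with RXR (a DR4 element). Coactivators such as PGC-1α, encoded by Ppargc1a, are recruited to the receptor pair once a ligand is bound, and corepressors such as NCoR1 leave it.

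The receptors read the same hexamer with a short stretch of their first zinc finger. The coding sequence around this stretch is shown for all 8 genes, from GENCODE M1 transcripts, because it is the part of each receptor that reads the shared hexamer and shows how alike the genes are there. Capitals mark the 18 bases that encode the 6 residues of the stretch facing the DNA.
Ppara: cacgcaTGTGAAGGCTGTAAGGGCttcttt
Ppard: cacgcgTGCGAGGGGTGCAAGGGCttcttc
Pparg: catgctTGTGAAGGATGCAAGGGTtttttc
Rxra: tacagtTGTGAGGGCTGCAAGGGCttcttc
Rxrb: tacagcTGCGAGGGCTGCAAGGGTttcttc
Rxrg: tacagcTGTGAAGGTTGCAAAGGCttcttc
Nr1h2: ctcagcTGTGAAGGCTGCAAAGGCttcttc
Nr1h3: ctgagcTGCGAGGGCTGCAAGGGAttcttc
The 8 genes spell the same 6 residues in 8 different ways. Of the 18 capital bases, between 13 (Rxrb and Rxrg, Rxrg and Nr1h3) and 17 (Rxrb and Nr1h3, Rxrg and Nr1h2) were identical in a pair of genes. No stretch of 50 bases of the transcripts of 7 receptors occurred in a transcript of another gene, and in Rxrg 7 of 2345 such stretches did. At that length the receptors could thus be told apart by sequence over nearly all of their transcripts. Only Nr1h3 overlapped another gene on the same strand, with 34 exon bases (1.35%) shared with Gm13783.

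In RefSeq GRCm38.p6, Ppara lies at chr15:85734910-85806851, Ppard at chr17:28232754-28301469 and Pparg at chr6:115360879-115490404. Rxra lies at chr2:27676445-27763319, Rxrb at chr17:34031812-34038403 and Rxrg at chr1:167598362-167639623. Nr1h2 lies at chr7:44549616-44553968 and Nr1h3 at chr2:91184061-91202829. FPKM do not retain the number of reads behind a value, but the values of low genes put the relative depth of the libraries between 0.705 and 1.12 of that of CON-pre replicate 1. Totals per library ran from 283575 to 329282 FPKM, and log2 values of any pair of libraries correlated at 0.966 to 0.984. Markers of the labelled tissue were abundant, with the 9 skeletal muscle markers (such as Acta1 and Ckm) summing to between 51774 and 71153 FPKM.

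The same order of receptor levels was found in all 4 groups, with Rxra and Rxrg at the top and Ppara and Pparg at the bottom. Over the 16 libraries the mean level was 31.5 FPKM for Rxra, 26.4 for Rxrg, 14.0 for Nr1h2 and 11.6 for Rxrb. It was 7.51 FPKM for Ppard, 5.82 for Nr1h3, 3.62 for Ppara and 2.48 for Pparg. Rxra was thus at the 89.8th percentile of the genes tested and Pparg at the 33.8th. Neighbours in the order were close for several receptors. The ranges of Rxra (25.9 to 35.9 FPKM) and Rxrg (21.2 to 33.4) overlapped, although Rxra was above Rxrg within each of the 16 libraries. Nr1h2 was above Rxrb in 14 of 16 libraries and Ppara above Pparg in 15 of 16, with overlapping ranges. Ppard was above Nr1h3, and Nr1h3 above Ppara, in 16 of 16 libraries, again with overlapping ranges. The ranges did not overlap between Rxrg and Nr1h2 or between Rxrb and Ppard.

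**Figure D1:**
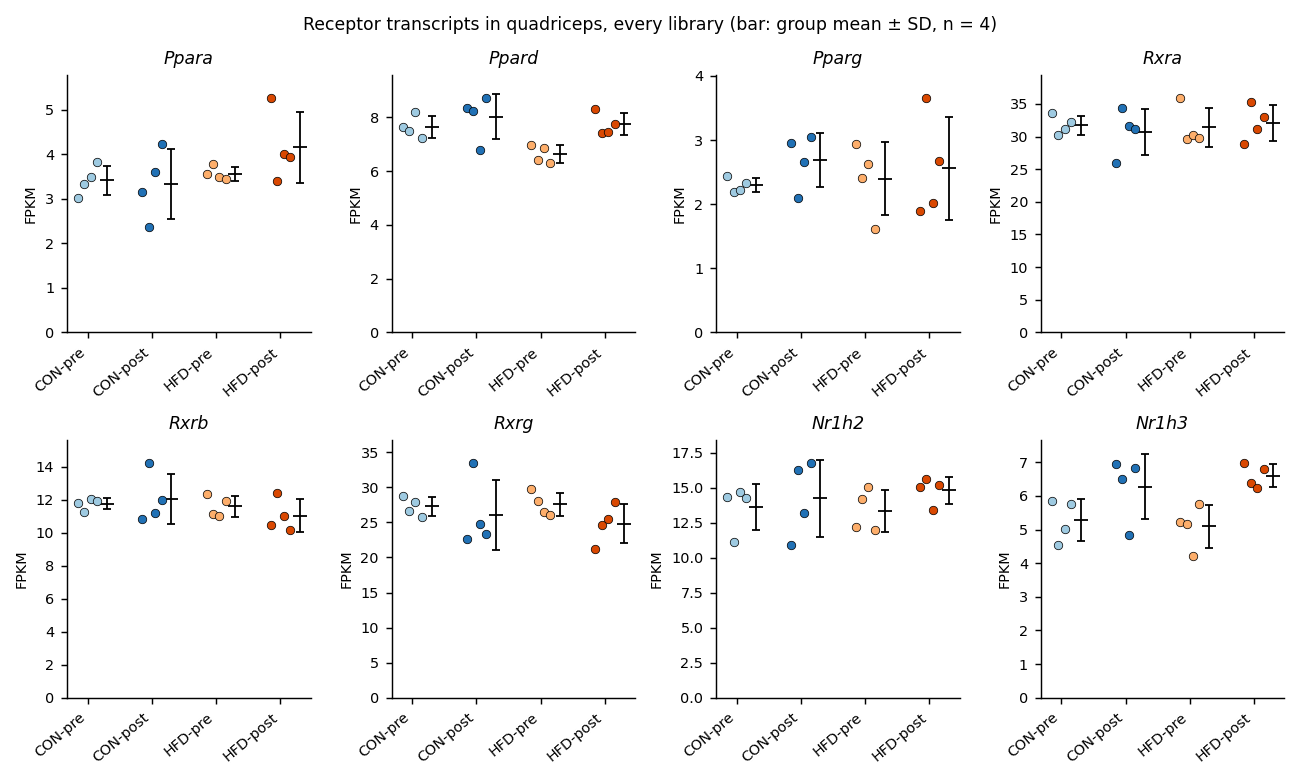
Level of each receptor in FPKM (vertical axis, from 0) in every library of the 4 groups, with the group mean ± SD beside the points (n = 4). Rxra and Rxrg lie above 20 FPKM and Ppara and Pparg below 6, and the groups overlap in most panels, while the HFD-pre libraries of Ppard (6.30 to 6.98 FPKM) lie below all CON-pre and all but 1 of the libraries after exercise.

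Within each family 1 subtype made up the largest share. Ppard, the PPAR that muscle is known to express most, held 55.2 ± 3.62% (SD, n = 16) of the summed PPAR FPKM, Ppara 26.5 ± 3.72% and Pparg 18.2 ± 3.17%. Among RXR transcripts, Rxra held 45.3 ± 1.82%, Rxrg, the subtype known for its restriction to muscle and a few other tissues, 37.9 ± 1.96%, and the broadly expressed Rxrb 16.7 ± 0.951%. Among LXR transcripts the ubiquitous Nr1h2 held 70.6 ± 3.65% and Nr1h3, known from liver, fat and macrophages, 29.4 ± 3.65%. RXR transcripts exceeded the sum of their PPAR and LXR partners in every library, at a ratio of 2.09 ± 0.244 (range 1.62 to 2.53). The ratio was 2.20 ± 0.129 in CON-pre, 2.28 ± 0.193 in HFD-pre, 2.00 ± 0.292 in CON-post and 1.90 ± 0.193 in HFD-post. Shares of Ppard were between 54.0 and 58.9% in CON-pre and between 50.9 and 55.6% in HFD-pre, ranges that overlapped. Shares were compared as a description only.

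**Figure D2:**
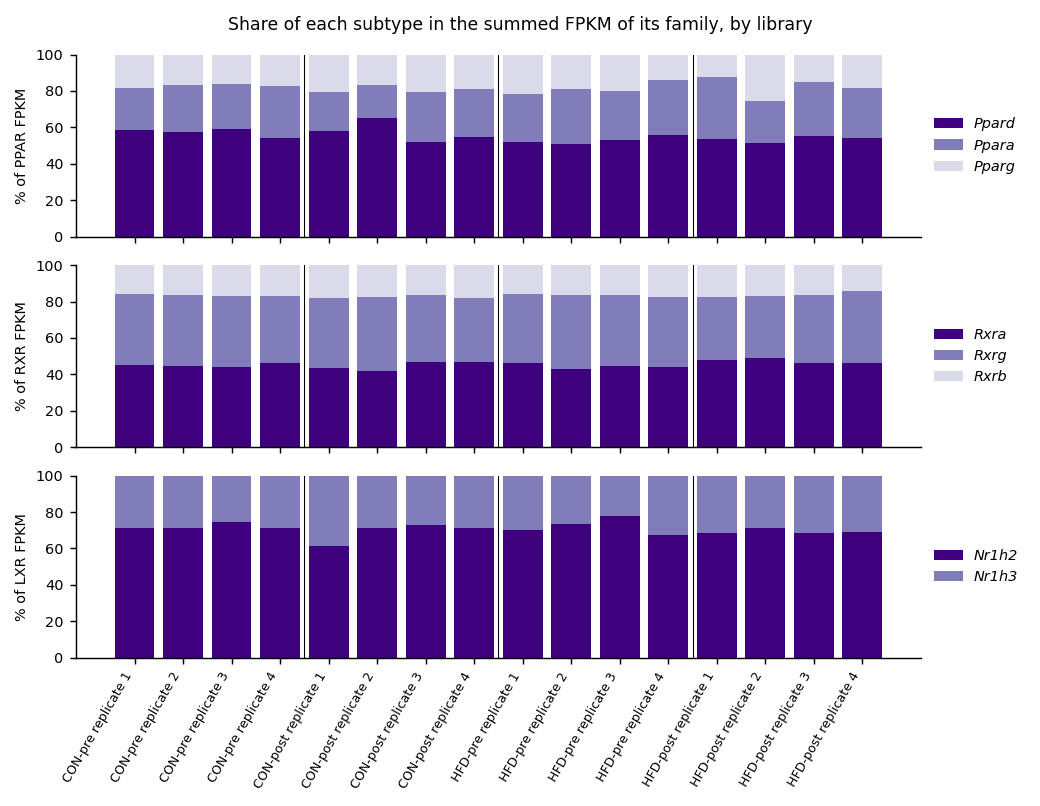
Share of each subtype in the summed FPKM of its family (vertical axis, percent, from 0 to 100), with 1 bar per library and black lines between the groups. Ppard takes more than 50% of PPAR transcripts in every bar, Rxra the largest part of RXR and Nr1h2 more than 60% of LXR.

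None of the 8 receptors was differentially expressed in any of the 7 contrasts tested with limma (Benjamini-Hochberg adjusted p under 0.05 over all genes tested). The diet contrast before exercise, HFD-pre against CON-pre, called 39 of the 11256 genes (0.346%) and 0 of the 8 receptors, of which 1 (Ppard) had an unadjusted p under 0.05. Exercise on the control diet, CON-post against CON-pre, called 1.11% of genes and 0 receptors, and 0 had an unadjusted p under 0.05. Exercise on the high-fat diet, HFD-post against HFD-pre, called 0.542% of genes and 0 receptors, and 2 (Nr1h3 and Ppard) had an unadjusted p under 0.05. The diet contrast after exercise, HFD-post against CON-post, called 0.151% of genes and 0 receptors, with 0 at an unadjusted p under 0.05. For the interaction of diet and exercise limma called 0.0% of genes, although 356 genes had an unadjusted p under 0.05, none of them a receptor. The diet effect averaged over exercise states called 0.959% of genes and 0 receptors, with 0 at an unadjusted p under 0.05. The exercise effect averaged over diets called 3.86% of genes and 0 receptors, with Nr1h3 and Ppard at an unadjusted p under 0.05. With so low a background share, a count of 0 among 8 genes is not a result that sets the receptors apart.

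The intervals of the fold changes say more than the counts. Taken 1 gene at a time, the 95% intervals reached no farther than 1.31-fold in either direction for HFD-pre against CON-pre, the bound of Pparg. The corresponding bounds were 1.46-fold for CON-post against CON-pre, 1.51-fold for HFD-post against HFD-pre and 1.50-fold for HFD-post against CON-post. These are folds of FPKM + 0.5, so the same limits are wider in FPKM for low genes such as Pparg. As 8 separate intervals they give no joint 95% bound for the receptors. Standard errors of the 4 pairwise log2 fold changes were smallest for Ppard (0.079) and largest for Pparg (0.17), the receptor with the lowest level.

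**Figure D3:**
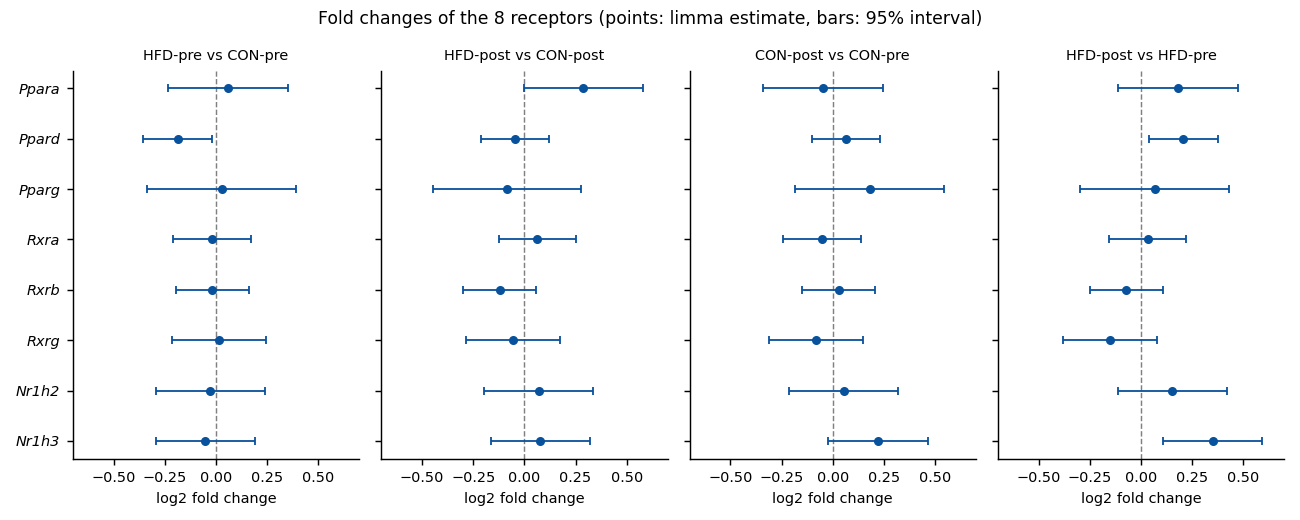
log2 fold change of each receptor in the 4 pairwise comparisons (horizontal axis, log2(FPKM + 0.5) scale), with points for the limma estimate and bars for the 95% interval. The interval leaves out 0 for Ppard in HFD-pre against CON-pre and for Ppard and Nr1h3 in HFD-post against HFD-pre, and none of the 3 is below an adjusted p of 0.05.

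Ppard encodes PPARδ, the main PPAR of muscle and a regulator of fatty acid oxidation and of the response to endurance training. Its level was 7.63, 7.49, 8.20 and 7.22 FPKM in the CON-pre libraries and 6.98, 6.42, 6.87 and 6.30 in the HFD-pre libraries, so that every HFD-pre library lay below every CON-pre library. After exercise it was 8.36, 8.24, 6.80 and 8.73 FPKM in CON-post and 8.32, 7.41, 7.48 and 7.77 in HFD-post. Every HFD-post library lay above every HFD-pre library, whereas CON-post overlapped CON-pre because of replicate 3. The log2 fold change was -0.19 (SE 0.079, limma adjusted p = 0.527) for HFD-pre against CON-pre and 0.21 (SE 0.079, adjusted p = 0.311) for HFD-post against HFD-pre. It was 0.064 (adjusted p = 0.823) for CON-post against CON-pre and -0.045 (adjusted p = 0.995) for HFD-post against CON-post. The difference between the exercise responses on the 2 diets was 0.14 (SE 0.11, adjusted p = 1.00), so it was not shown that exercise acted differently on Ppard by diet.

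Non-overlap is itself not rare in groups of this size. It was seen for Ppard in HFD-pre against CON-pre, where 5.62% of all genes tested did not overlap, and for Ppard and Nr1h3 in HFD-post against HFD-pre, where 6.81% did not. No receptor had separate groups in CON-post against CON-pre (5.82% of genes) or in HFD-post against CON-post (3.16% of genes). Each of the 3 separate pairs had an exact two-sided permutation p of 0.0286, the smallest that 4 libraries against 4 can give, and 0.305 after adjustment over the 32 tests of receptors and pairs.

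Ppara encodes PPARα, the fatty acid sensor best known from liver, heart and oxidative muscle. It was 3.03, 3.32, 3.48 and 3.82 FPKM in CON-pre and 3.56, 3.79, 3.48 and 3.43 in HFD-pre, with nearly the same means of 3.41 ± 0.328 and 3.57 ± 0.157. After exercise it was 3.15, 2.36, 3.61 and 4.22 FPKM in CON-post and 5.26, 3.40, 4.00 and 3.95 in HFD-post. The highest level of any library was in HFD-post and the lowest in CON-post, yet the groups overlapped. The log2 fold change was 0.29 (SE 0.14, limma adjusted p = 0.809) for HFD-post against CON-post, with an interval from -0.0043 to 0.58. It was 0.16 without CON-post replicate 2 and 0.18 without HFD-post replicate 1 (adjusted p = 0.928 and 0.945). Before exercise the diet difference was 0.059 (SE 0.14, adjusted p = 0.963), and averaged over exercise states it was 0.17 (SE 0.098, adjusted p = 0.582). The interaction was 0.23 (SE 0.20, adjusted p = 1.00).

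Pparg encodes PPARγ, which drives fat cell formation and lipid storage. It had the lowest level and the largest spread between libraries, at 2.30 ± 0.113 FPKM in CON-pre, 2.39 ± 0.568 in HFD-pre, 2.69 ± 0.427 in CON-post and 2.56 ± 0.807 in HFD-post. Single values ran from 1.61 FPKM in HFD-pre replicate 4 to 3.66 in HFD-post replicate 2, 2.27-fold apart and both on the high-fat diet. Its log2 fold changes lay between -0.085 (HFD-post against CON-post) and 0.18 (CON-post against CON-pre), each below or about equal to the SE of 0.17. The 9 adipocyte markers were all detected, and their summed level was 378 to 485 FPKM in CON-pre, 326 to 419 in HFD-pre, 380 to 572 in CON-post and 343 to 668 in HFD-post. Before exercise 4 of the 9 were higher and 5 lower in HFD-pre than in CON-pre, and 5 had an unadjusted p under 0.05, of which 1 was higher and 4 were lower. Among them leptin (Lep) rose with the high-fat diet before exercise by 2.34 on the log2 scale (adjusted p = 0.0138) and adipsin (Cfd) fell by 1.97 (adjusted p = 0.00440). Both genes passed the test again after exercise (2.74 for Lep and -1.58 for Cfd), and no other adipocyte marker was called in either comparison. The adipocyte score correlated with Pparg at 0.46 over the 16 libraries (0.33 without the 2 farthest). This was not particular to Pparg, since the value was 0.56 for Rxra (0.55 without the 2 farthest) and 0.44 for Nr1h2 (0.37). In every fit that took in an adipocyte score, that score left out Lep and Cfd, unlike the score of all 9 markers correlated here. With this shorter score in the model, Pparg differed by -0.089 (SE 0.17) in HFD-post against HFD-pre, in place of 0.067, and Pparg was called in none of the 4 comparisons.

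The RXR genes encode the shared partners of PPARs and LXRs. Rxra was 31.8 ± 1.46 FPKM in CON-pre, 31.4 ± 3.01 in HFD-pre, 30.8 ± 3.51 in CON-post and 32.1 ± 2.70 in HFD-post, means that differed by less than the SD of each group. Rxrb was 11.7 ± 0.333 FPKM in CON-pre, 11.6 ± 0.635 in HFD-pre, 12.1 ± 1.52 in CON-post and 11.0 ± 0.995 in HFD-post. Both genes had log2 fold changes between -0.12 and 0.064 in the 4 comparisons. Rxrg was 28.8, 26.6, 28 and 25.8 FPKM in CON-pre and 29.7, 28, 26.4 and 26.0 in HFD-pre. The libraries after exercise had 22.6, 33.4, 24.8 and 23.3 FPKM in CON-post and 21.2, 24.7, 25.6 and 27.9 in HFD-post. Of the 8 libraries taken after exercise, 6 were below the lowest of the 8 taken before it, but CON-post replicate 2 held the highest value of all. The log2 fold change of Rxrg for exercise averaged over diets was -0.12 (SE 0.077, limma adjusted p = 0.442).

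Of the LXR genes, Nr1h3 came nearest to a call for exercise, and its change was not tested against that of Nr1h2. Nr1h3, encoding LXRα, was 5.86, 4.54, 5.03 and 5.75 FPKM in CON-pre and 5.22, 5.17, 4.22 and 5.76 in HFD-pre. It was 6.94, 6.49, 4.84 and 6.84 FPKM in CON-post and 6.97, 6.39, 6.25 and 6.79 in HFD-post. Of the 8 libraries taken after exercise, 7 were above all 8 taken before it, and the exception was CON-post replicate 3. The log2 fold change was 0.35 (SE 0.11, limma adjusted p = 0.236) on the high-fat diet and 0.22 (SE 0.11, adjusted p = 0.502) on the control diet. Averaged over diets it was 0.29 (SE 0.081), a 1.22-fold higher level with a 95% interval from 1.08 to 1.37 and an adjusted p of 0.0616. This was the receptor contrast nearest to the threshold, and it passed the threshold without CON-post replicate 3 (adjusted p = 0.0153) and without HFD-pre replicate 4 (adjusted p = 0.0470). Without any 1 of the other 14 libraries the adjusted p lay between 0.0532 and 0.125. The interaction of 0.13 (SE 0.16, adjusted p = 1.00) did not show that the diets differed in this respect. Diet averaged over exercise states moved Nr1h3 by 0.013 (SE 0.081), with an interval from -0.16 to 0.19.

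Macrophages are another cell type known to express Nr1h3. The summed FPKM of 11 macrophage markers were 110 to 182 in CON-pre, 101 to 130 in HFD-pre, 84.8 to 237 in CON-post and 79.2 to 167 in HFD-post, and all 11 were detected. These ranges overlapped between all groups. Limma called 0 of the 11 for exercise averaged over diets, of which 1 (Cd14) had an unadjusted p under 0.05, and the marker score correlated with Nr1h3 at 0.05 over the 16 libraries. Of the 9 adipocyte markers, fat being another tissue known to express Nr1h3, 8 were higher after exercise averaged over diets (median log2 fold change 0.25), and limma called 0, with 2 at an unadjusted p under 0.05. With the adipocyte score in the model the exercise change of Nr1h3 was 0.28 (limma adjusted p = 0.0921). It was 0.29 with the macrophage score (adjusted p = 0.0528) and 0.29 with the slow-fibre score (adjusted p = 0.0583), and none of these fits called it. Nr1h2, encoding the widely expressed LXRβ, was 13.6 ± 1.65 FPKM in CON-pre, 13.3 ± 1.51 in HFD-pre, 14.3 ± 2.75 in CON-post and 14.8 ± 0.972 in HFD-post. Its log2 fold change for exercise averaged over diets was 0.10 (SE 0.089, adjusted p = 0.585).

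Within groups the levels of the 3 RXR genes ran together. After group means were taken off, log2 levels correlated at 0.73 for Rxra with Rxrb, 0.69 for Rxra with Rxrg and 0.59 for Rxrb with Rxrg, over 16 libraries. With group means left in, r was 0.57, 0.60 and 0.58 and rho 0.60, 0.43 and 0.36, so that the pairs with Rxrg ran together less closely by rank. Ppara ran against Rxrg, at -0.72 within groups (r = -0.68 and rho = -0.42 without removing group means). It also ran against Rxrb, at -0.56 (r = -0.65, rho = -0.39), and less closely against Rxra, at -0.42 (r = -0.26, rho = -0.16). These values are descriptions without a p, since all genes of a library share its depth and its mixture of fibres. Slow-fibre markers (7 genes, such as Myh7 and Tnnt1) varied widely in every group, with sums of 199 to 694 FPKM in CON-pre, 188 to 502 in HFD-pre, 178 to 686 in CON-post and 181 to 731 in HFD-post. Rxrg was lowest in HFD-post replicate 1, the library with the most slow-fibre transcript, and highest in CON-post replicate 2, the library with the least. Ppara was highest in the first of these libraries and lowest in the second. Over the 16 libraries the slow-fibre score correlated at -0.75 with Rxrg (rho -0.72, and -0.73 without the 2 libraries farthest from the median score), at -0.67 with Rxra and at 0.45 with Ppara (rho 0.31, and 0.62 without those 2 libraries). The fibroblast score, from 5 markers with sums of 306 to 497 FPKM over all libraries, correlated at 0.60 with Rxra, 0.70 with Rxrb and 0.62 with Rxrg. The macrophage score correlated at 0.69, 0.67 and 0.69 with the same receptors and at -0.60 with Ppara. Several of these relations rest on few libraries. Without the 2 libraries farthest from the median score the fibroblast values were 0.29, 0.52 and 0.30, and the macrophage values 0.65, 0.27 and 0.33 with the RXR genes and 0.06 with Ppara. Taking the slow-fibre, macrophage or adipocyte score into the limma model, 1 at a time, left 0 receptors called in each of the 7 contrasts. The slow-fibre score moved the diet difference of Ppara after exercise from 0.29 to 0.35 (SE 0.11, adjusted p = 0.343), and the macrophage score moved it to 0.22 (SE 0.12, adjusted p = 0.663).

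The genes most like each receptor over the 16 libraries were found among 9910 other genes of at least 1 FPKM, by Pearson r of log2 levels and without a test. For Rxra they were Cd151 (r = 0.88, rho = 0.87), Cygb and Ext2, and for Rxrb they were Ppme1 (r = 0.87, rho = 0.83), Enoph1 and Ptk2. For Rxrg they were Cdk5rap3 (r = 0.88, rho = 0.70), Fam65b and Kcnj11. For Ppara they were Fmo1 (r = 0.83, rho = 0.72), Acot11 and Smtnl1, for Ppard Srrd (r = 0.78, rho = 0.80), Pdxdc1 and Idh1, and for Pparg Ndel1 (r = 0.76, rho = 0.61), Pigt and 2310065F04Rik. For Nr1h2 they included Lamtor1 (r = 0.80, rho = 0.77) and Cenpb, and for Nr1h3 they were Anxa11 (r = 0.84, rho = 0.78), Rapgef2 and Daxx. No receptor was the best match of another.

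Some of the genes that PPARs are known to turn on passed the test, all of them upward in the 4 pairwise comparisons. The list of PPAR targets held 43 genes, of which 39 were tested (not Cyp4a10, Cyp4a14, Fgf21 and Gyk). In HFD-pre against CON-pre, 14 of the 39 rose and 0 fell, with a median log2 fold change of 0.44 beside -0.034 over all genes tested and -0.019 over the receptors. Of the 39, 37 were higher and 2 lower, the lowest being Vldlr, a lipoprotein receptor (-0.36, limma adjusted p = 0.249). Acadl, a mitochondrial dehydrogenase of fatty acid oxidation, went from 93.5 ± 4.96 to 160 ± 18.8 FPKM (log2 fold change 0.77, limma adjusted p = 0.00109). Ech1, an isomerase of the same pathway, went from 99.9 ± 8.95 to 183 ± 14.1 FPKM (0.87, adjusted p = 0.00109). Acot2, a mitochondrial acyl-CoA thioesterase, rose by 1.16 (adjusted p = 0.00274) and Slc25a20, the carnitine-acylcarnitine carrier, by 0.63 (adjusted p = 0.00440). Acot1 and Acot2 are near copies of each other, so the division of reads between them is uncertain. Leaving out either of CON-pre replicates 1 and 2 or HFD-pre replicates 1, 3 and 4 brought the 14 down to between 7 and 9. Fitting only the 2 groups gave 8, and taking in the adipocyte score gave 9. Adipoq, Cidec and Fabp4 stand in both the adipocyte and the PPAR target list, so that score is partly built from genes counted here. Markers of the cell mixture were also compared between these groups. The skeletal muscle markers summed to 64961 to 71153 FPKM in CON-pre and to 57122 to 62646 in HFD-pre, without overlap. Of the 9, 3 were higher and 6 lower (median -0.16), and those at an unadjusted p under 0.05 went both ways (Ckm -0.23, Tnnt3 -0.20, Mb 0.41). Their score, the mean of centred log2 levels, overlapped, at -0.10 to 0.077 in CON-pre and -0.096 to 0.057 in HFD-pre. All 7 slow-fibre markers were lower in HFD-pre (median log2 fold change -0.58) and all 7 endothelial markers higher (median 0.17), and limma called 0 of the 9 muscle, 7 slow-fibre and 7 endothelial markers, with 3, 0 and 2 at an unadjusted p under 0.05. Of 11 macrophage markers 10 were lower (median -0.26), and limma called 0, with 0 at an unadjusted p under 0.05. Of 9 adipocyte markers Lep and Cfd were called, as given above. With the slow-fibre score in the model 16 PPAR targets were called, and the part of muscle and endothelial markers in the count was not tested.

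In CON-post against CON-pre, 6 of the 39 PPAR targets rose and 0 fell, with a median of 0.26 beside -0.0058 over all genes tested and 37 higher against 2 lower. In this comparison 6 of 7 endothelial markers were higher (median 0.10) and 4 of 4 tested liver markers lower (median -1.54). Limma called 0 endothelial, 0 liver and 0 skeletal muscle markers, with 2, 1 and 3 at an unadjusted p under 0.05. Acot2 rose by 1.45 (limma adjusted p = 6.77e-05) and Pdk4, the kinase that shuts off pyruvate oxidation, by 1.38, from 207 ± 66.5 to 518 ± 36.3 FPKM (adjusted p = 0.00210). Mlycd, the malonyl-CoA decarboxylase that frees fatty acid import, rose by 0.52 (adjusted p = 0.00709) and Ucp3, a mitochondrial carrier of muscle, by 0.87 (adjusted p = 0.00878). The 6 calls became 3 when only the 2 groups were fitted and 10 with array weights. In HFD-post against HFD-pre 1 of the 39 rose and 0 fell, and the list median was 0.24 beside 0.035 over all genes tested. All 39 had a log2 fold change above 0 in that comparison, as had 7 of 7 slow-fibre markers (median 0.25) and 8 of 9 adipocyte markers (median 0.41). Limma called none of these markers, with 0 and 2 at an unadjusted p under 0.05, and it called 1 of 7 endothelial markers (Pecam1, 0.39, adjusted p = 0.0347). The 7 endothelial markers went both ways, with 3 higher and 4 lower (median -0.015). The count of 1 was not stable, at 0 to 2 when 1 library was left out. In HFD-post against CON-post 6 rose and 0 fell, with a median of 0.39 beside 0.0038 over all genes tested and 35 higher against 4 lower. All 7 slow-fibre markers (median -0.32) and 10 of 11 macrophage markers (median -0.25) were lower and all 4 tested liver markers higher (median 1.04), and limma called 0 of these, with 0 at an unadjusted p under 0.05. The 6 PPAR targets were led by Ech1 (0.82, adjusted p = 0.00172), Acadl (0.60, adjusted p = 0.00883), Decr1, a reductase of unsaturated fatty acids (0.73, adjusted p = 0.00893), and Cpt2, a carnitine palmitoyltransferase (0.52, adjusted p = 0.0103). The 6 calls became 3 without CON-post replicate 2, 0 when only the 2 groups were fitted (adjusted p = 0.109 for each of these 4 genes) and 10 with the slow-fibre score. These comparisons share groups with each other, so their values are given side by side only.

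**Figure D4:**
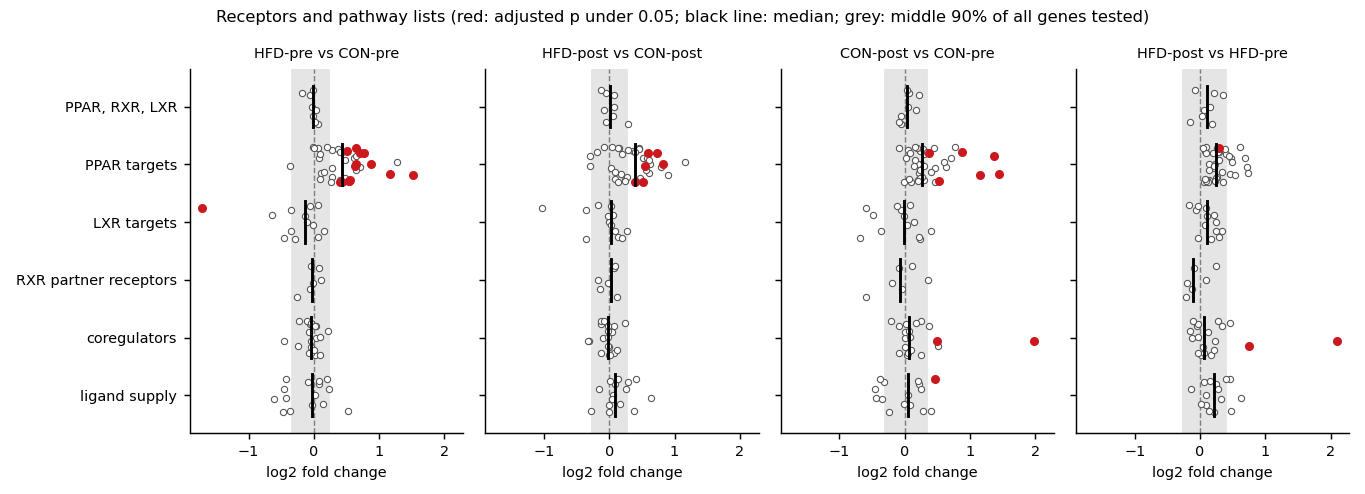
log2 fold changes (horizontal axis) of the 8 receptors and of the tested genes of 5 pathway lists in the 4 pairwise comparisons, with red points for genes at an adjusted p under 0.05, black lines for medians and a grey band for the middle 90% of all genes tested. The receptors lie around 0 without a red point, whereas the PPAR targets lie to the right with 14, 6, 6 and 1 red points from the left panel to the right.

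Few genes of the other lists passed the test. Of 20 LXR targets 13 were tested, and in the 4 pairwise comparisons only Fasn, the fatty acid synthase, was called, which fell by 1.71 in HFD-pre against CON-pre, from 8.98 ± 0.882 to 2.41 ± 0.451 FPKM (limma adjusted p = 0.00440). The median of the 13 was -0.13 in that comparison, -0.011 in CON-post against CON-pre, 0.10 in HFD-post against HFD-pre and 0.020 in HFD-post against CON-post, and limma called 0 in the last 3. In these 3 comparisons the lowest p was that of Scd2, a fatty acid desaturase (-0.69, adjusted p = 0.106), Mylip, the ligase that degrades the LDL receptor (0.29, adjusted p = 0.260), and Fasn (-1.03, adjusted p = 0.151). The number of LXR targets with an unadjusted p under 0.05 was 5, 2 and 1 in them. Abcg1, a sterol exporter under LXR control, was below the filter, at 0.251 ± 0.0449 FPKM in CON-pre and 0.419 ± 0.0698 in HFD-pre.

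The 6 tested of 11 other receptors that pair with RXR held 0 calls by limma in the pairwise comparisons. For diet 0 genes had an unadjusted p under 0.05 before or after exercise, and for exercise 2 did on the control diet and 1 on the high-fat diet. The lowest p was that of Rarb, a retinoic acid receptor, in HFD-pre (-0.25, adjusted p = 0.725) and in CON-post against CON-pre (-0.58, adjusted p = 0.0844). For HFD-post it was that of Thra, a thyroid hormone receptor, against HFD-pre (-0.20, adjusted p = 0.386) and of Thrb against CON-post (-0.14, adjusted p = 0.939). All 19 coregulators were tested, and calls were made for exercise and not for diet. Ppargc1a went from 6.60 ± 0.365 to 28.3 ± 8.0 FPKM on the control diet (log2 fold change 1.98, adjusted p = 4.38e-05) and from 4.69 ± 0.344 to 22.3 ± 5.40 on the high-fat diet (2.10, adjusted p = 2.87e-05). Lpin1, a phosphatase that also acts as a PPARα coactivator, rose by 0.50 in CON-post (adjusted p = 0.00344), and Nrip1, a corepressor, rose by 0.75 in HFD-post (adjusted p = 0.0266), a call lost without any 1 of 7 libraries. On the other diet Lpin1 differed by 0.23 (adjusted p = 0.276) and Nrip1 by 0.52 (adjusted p = 0.119), and the interaction was called for neither (adjusted p = 1.00 for both). For diet the lowest p was that of Ppargc1a before exercise (-0.45, adjusted p = 0.520) and of Lpin1 after it (-0.32, adjusted p = 0.210), with 1 coregulator each at an unadjusted p under 0.05. The value for Ppargc1a takes its spread from all 4 groups, and its SD was far larger after exercise. With only the 2 groups before exercise fitted, its limma adjusted p was 0.0669, and without CON-pre replicate 1 it was 0.720.

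Among 15 tested of 23 genes of ligand supply, which release fatty acids or make and carry retinoids and oxysterols, 1 was called in the 4 pairwise comparisons. Pnpla2, the lipase that starts the release of fatty acids from stored fat, went from 56.7 ± 7.69 to 77.9 ± 6.11 FPKM in CON-post (0.46, limma adjusted p = 0.0157), and in HFD-post it differed by 0.40 (adjusted p = 0.0775). Mgll, the lipase of the last step, differed by 0.52 in HFD-pre (adjusted p = 0.108) and by 0.38 in HFD-post against CON-post (adjusted p = 0.435). These 3 comparisons without a call had 4, 3 and 3 genes of the list at an unadjusted p under 0.05. The call of Pnpla2 was lost without any 1 of 4 libraries.

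The averaged contrasts take in both diets or both exercise states. For diet averaged over exercise states 22 of 39 PPAR targets rose and 0 fell, and for exercise averaged over diets 15 rose and 0 fell, a count that was 9 at its lowest without 1 library. In the exercise contrast 7 of 7 slow-fibre markers (median 0.16) and 8 of 9 adipocyte markers (median 0.25) had a log2 fold change above 0. Limma called 0 in either list, with 0 and 2 at an unadjusted p under 0.05. Of 7 endothelial markers 4 were higher and 3 lower (median 0.023), and only Pecam1 was called, upward (0.36, limma adjusted p = 0.00141). Of 9 skeletal muscle markers 4 were higher and 5 lower (median -0.053), and only Des was called, upward (0.23, limma adjusted p = 0.0322). In the diet contrast all 11 macrophage (median -0.23), 7 slow-fibre (median -0.46) and 5 fibroblast markers (median -0.080) had a log2 fold change below 0, and limma called 0 of them, with 0 at an unadjusted p under 0.05. Limma called 0 of 9 skeletal muscle markers there, with 5 at an unadjusted p under 0.05, and 3 of 9 adipocyte markers, of which Lep rose and Cfd and Adrb3 fell. For diet Fasn was again the only LXR target called, which fell by 1.37 (limma adjusted p = 0.000436), and 0 of 6 RXR partners were called, with 0 at an unadjusted p under 0.05. In the exercise contrast, where Nr1h3 came nearest to the threshold, 2 of 13 LXR targets rose and 0 fell. They were Lpl, the lipoprotein lipase (log2 fold change 0.37, limma adjusted p = 0.0307), and Mylip (0.26, adjusted p = 0.0493), and the median of the 13 was -0.042 beside 0.014 over all genes tested. Lpl is also a PPAR target, and its call was lost without any 1 of 7 libraries and that of Mylip without any 1 of 14. Rarb fell by 0.40 in the same contrast (adjusted p = 0.0478), a call lost without any 1 of 12 libraries. Coregulators had 4 calls upward and 0 downward for exercise, and limma called 0 for diet, with 2 at an unadjusted p under 0.05. Of the ligand supply genes, 2 rose with exercise and 1 with diet (Mgll, 0.45, adjusted p = 0.0163), and 0 fell.

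**Figure D5:**
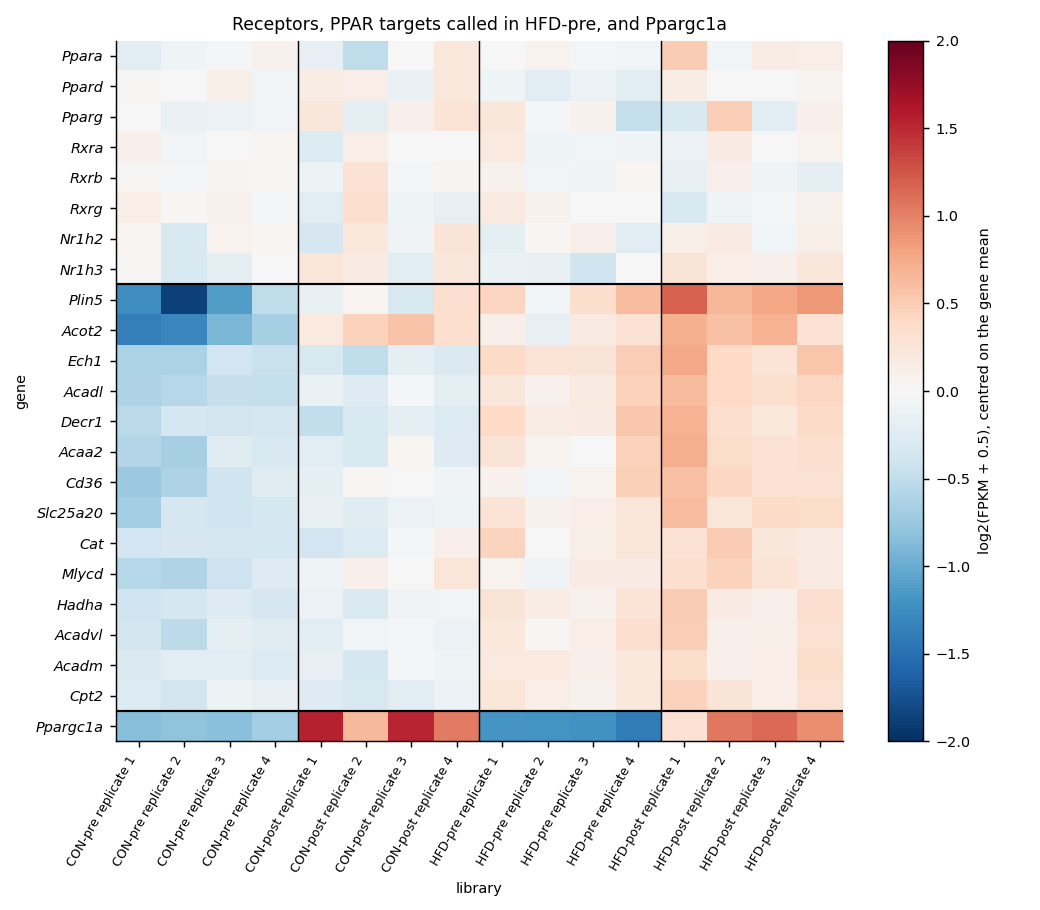
log2(FPKM + 0.5) centred on the mean of each gene (colour) in the 16 libraries, ordered by group, for the 8 receptors (top), the 14 PPAR targets called in HFD-pre against CON-pre (middle) and Ppargc1a (bottom). Receptors stay within 0.51 of their mean. The targets range from at most 0.35 for Acadm to at most 1.86 for Plin5, and Ppargc1a departs by up to 1.53, with libraries taken before exercise low for Ppargc1a. CON-pre libraries are low for the targets, which follows from their choice by calls in these same libraries. Their range can for the same reason not be set against that of the receptors, and the other tested targets are not shown.

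The 250 bases before the start of transcription were searched for the elements that these receptor pairs bind, in 32851 RefSeq promoters of GRCm38.p6. A DR1 was 2 copies of AGGTCA in 1 direction with 1 base between them and a DR4 the same with 4 bases between them, on either strand, with at most 2 mismatches over the 12 bases of the copies. The search held 39 promoters of 32 of the 43 listed PPAR targets and 17 promoters of 11 of the 20 listed LXR targets. A DR1 was found in 3.24% of all promoters, in 2.44% of those of genes tested and in 4 of 39 promoters of PPAR targets (10.3%). A DR4 was found in 2.57%, in 1.86% and in 3 of 39 (7.69%). None of the 17 promoters of LXR targets held either. With at most 1 mismatch, no promoter of either list held one, beside 0.484% (DR1) and 0.240% (DR4) of all promoters. Among 14 promoters of the 8 receptors, 1 of Rxra held a DR1. The matches are printed on the strand of the gene, with the copies of the hexamer in capitals, to show how far the promoters of genes that did and did not rise hold the letters of the element.
Cat, DR1, chr2:103485337-103485365: actctcagAGGTCAgAGAACAccagcagg
Cd36, DR1 on the other strand, chr5:17835939-17835967: tggttctcTGGCCTcTGACTTacttggat
Plin2, DR1 on the other strand, chr4:86670264-86670292: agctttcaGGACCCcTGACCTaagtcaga
Ucp3, DR1, chr7:100472932-100472960: tcagaattAGGTTTcAGGTCAgctggtgc
Rxra, DR1, chr2:27709209-27709237: ctgagtaaTGGTCAtAGGCCAgtgggtgg
Acadvl, DR4, chr11:70015503-70015532: tgaagatGGATCAccctAGGTCAggtagaa
Plin5, DR4, chr17:56117696-56117725: tagtctgAGGTCAgccaTGGTGActggacc
Ucp3, DR4, chr7:100472835-100472864: gagccccAGGTCAcggaAGCTAAaccagat
Of the genes with a DR1, the catalase gene Cat and Cd36, the fatty acid transporter, rose in HFD-pre (0.55 and 0.64, limma adjusted p = 0.0458 and 0.0229). Plin2, a lipid droplet coat protein, did not pass the test (0.097, adjusted p = 0.912). Ucp3, with both elements, did not pass the test in HFD-pre (0.40, adjusted p = 0.488), and Plin5 and Acadvl, with a DR4, rose in HFD-pre (1.52 and 0.51, adjusted p = 0.00588 and 0.0300). A match says only that these letters stand in the window, and binding was not measured.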

How the data were processed

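Stranded poly(A) libraries were read by the authors on a HiSeq instrument, and FPKM from TopHat alignments and Cufflinks were deposited as 1 table. The submitters' processing notes name mm9. Loci of the study's gene table overlapped GRCm38 for 692 of 692 genes and mm9 for 113, so positions are from RefSeq GRCm38.p6. FPKM are scaled for length and library size and carry no read counts, which leaves the precision of single values unknown and bars a count model.

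Of 24487 entries, 27 with names turned into dates were left out (0.0771% of FPKM) and entries of 260 repeated symbols were summed. 0 columns of sample values were left out. Adgre1 was matched under its older symbol Emr1. log2(FPKM + 0.5) was fitted with limma 3.58.1 (R 4.3.3, statmod 1.5.0) for the 11256 genes whose mean reached 0.5 FPKM, in 1 model of 4 groups with a mean-variance trend. Fold changes on this scale understate those of low genes. Single receptors were compared with exact permutation tests (scipy 1.17.1). The code was tested on simulated data. Python 3.11.15 (numpy 2.4.6, pandas 2.3.3, matplotlib 3.10.9) served for tables and plots. Alternatives were pseudocounts of 0.1 and 1, other filters, scalings, weights, covariates and fits, a replicate block, and leaving out each library. The adipocyte score taken in as a covariate left out Lep and Cfd.

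The members, the gene lists and the tests were chosen with earlier results of these data known, and the lists come from general knowledge of the pathways. Genes named from a list are the called genes, at most 4 by lowest adjusted p, or else the gene with the lowest p. Lep, Cfd, Cd14, Pecam1, Des, Adrb3, Vldlr, Abcg1, and Lpl, Mylip, Rarb, Fasn and Mgll in the averaged contrasts, and the genes with a promoter match, were named after their values had been seen. Alternatives for the counts of pathway lists were chosen after seeing the data. Metabolite data are not analysed here. Values of 2 genes that these rules name are not reported here.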

Additional observations from a re-analysis of the deposited data

Results flagged for a closer look

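In 2 of 32 sets of 4 libraries (8 receptors in 4 groups), 1 library stood apart from the other 3 by more than Dixon's 95% limit, where chance flags about 1 in 20 such sets. Rxra was 35.9 FPKM in HFD-pre replicate 1, with the other HFD-pre libraries between 29.7 and 30.2. The slow-fibre markers summed to 188 FPKM in that library, the lowest of HFD-pre. Nr1h2 was 11.2 FPKM (11.15) in CON-pre replicate 2, with the other CON-pre libraries between 14.3 and 14.7. That library had the lowest relative depth of all, 0.705. The part of fibre content and of depth in these values was not tested.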

How the results depend on the processing

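The 32 pairwise log2 fold changes of the receptors were recomputed under 30 alternatives, 14 of them other settings and 16 leaving out 1 library each. None of the 960 values reached an adjusted p under 0.05 (lowest 0.152), and 50 changed sign, all of them 0.093 or smaller in size. FPKM carry no read depth, so counting error cannot be set beside these values. Same-numbered libraries did not vary together (mean correlation -0.014, with 5 of 24 pairs over 0.1, and 6 of 16 libraries closest to their own number), so the numbers do not pair the samples. With the replicate block, receptors called for exercise averaged over diets went from 0 to 1 (Nr1h3, adjusted p = 0.0295), PPAR targets called in HFD-post against HFD-pre went from 1 to 0, coregulators called there from 2 to 1, and LXR targets and RXR partners called for averaged exercise to 1 and 0. Leaving out 1 library gave 0 to 1 receptors for exercise averaged over diets. PPAR targets ranged over 7 to 15 (HFD-pre against CON-pre), 4 to 9 (CON-post against CON-pre), 0 to 2 (HFD-post against HFD-pre), 3 to 6 (HFD-post against CON-post) and 9 to 18 (averaged exercise). LXR targets ranged over 0 to 1 in CON-post, 1 to 2 for averaged diet and 0 to 2 for averaged exercise, and RXR partners over 0 to 1 for averaged exercise. Coregulators ranged over 1 to 2 in HFD-post against HFD-pre. Ligand supply genes ranged over 0 to 1 in each exercise comparison, 1 to 2 for averaged diet and 2 to 4 for averaged exercise. Fitting only the 2 groups compared gave 8 PPAR targets in HFD-pre, 3 in CON-post and 0 in HFD-post against CON-post. The adipocyte score gave 9 in HFD-pre, array weights 10 in CON-post and the slow-fibre score 10 in HFD-post against CON-post, and no filter on low values gave 9 for averaged exercise. In HFD-post against HFD-pre each of upper-quartile scaling, quantile scaling, median-of-ratios scaling, no trend, the adipocyte score and the slow-fibre score gave 0 PPAR targets. LXR targets became 1 in CON-post with quantile scaling, the macrophage score or the slow-fibre score. For averaged exercise they became 0 with no filter, upper-quartile or quantile scaling, and 1 with median-of-ratios scaling, no trend, the adipocyte score or the slow-fibre score. RXR partners became 1 in CON-post with array weights, and for averaged exercise 0 with no filter or the slow-fibre score and 2 with upper-quartile scaling, quantile scaling or the macrophage score. Coregulators in HFD-post against HFD-pre became 1 with no filter, the 3 scalings or the adipocyte score. Ligand supply genes became 1 in HFD-pre with the 3 scalings, the adipocyte score or the macrophage score, 0 in CON-post with the 3 scalings or only the 2 groups, 1 in HFD-post against HFD-pre with the macrophage or slow-fibre score, and 2 for averaged diet with array weights or the adipocyte score. With at most 1 mismatch the promoters of PPAR targets with a DR1 and with a DR4 were 0 and 0. The cause was not tested, apart from the fewer samples of the smaller fits.

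Signs that turned in HFD-pre against CON-pre were as follows. Median-of-ratios scaling gave 0.020 for Rxra, 0.019 for Rxrb and 0.011 for Nr1h2, and quantile normalization gave 0.013 for Rxra and 0.0062 for Rxrb. The adipocyte score gave 0.052 for Rxra, 0.0060 for Rxrb and 0.034 for Nr1h2. The macrophage score gave -0.012 for Ppara, 0.037 for Rxra, 0.024 for Rxrb and 0.019 for Nr1h2, the slow-fibre score -0.00067 for Pparg and -0.086 for Rxrg, and array weights -0.0041 for Rxrg. In CON-post against CON-pre array weights gave 0.017 for Ppara and upper-quartile scaling -0.0085 for Rxrb. In HFD-post against HFD-pre the adipocyte score gave -0.089 for Pparg and -0.063 for Rxra, and for Rxra upper-quartile scaling gave -0.0064, median-of-ratios scaling -0.0061 and quantile scaling -0.034. In HFD-post against CON-post the macrophage score gave 0.024 for Rxrg.

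Leaving out 1 library, the receptors whose sign turned in HFD-pre against CON-pre ranged from -0.063 to 0.17 for Pparg, -0.084 to 0.0075 for Rxra, -0.048 to 0.0054 for Rxrb, -0.024 to 0.040 for Rxrg, -0.12 to 0.021 for Nr1h2 and -0.12 to 0.027 for Nr1h3. In CON-post against CON-pre the ranges were -0.16 to 0.084 for Ppara, -0.11 to 0.027 for Rxra, -0.049 to 0.077 for Rxrb and -0.037 to 0.17 for Nr1h2. In HFD-post against HFD-pre they were -0.093 to 0.17 for Pparg and -0.015 to 0.096 for Rxra. In HFD-post against CON-post they were -0.24 to 0.022 for Pparg, -0.015 to 0.12 for Rxra, -0.12 to 0.069 for Rxrg, -0.047 to 0.15 for Nr1h2 and -0.033 to 0.13 for Nr1h3.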

Other observations

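Liver markers, which do not belong to muscle, were uneven between libraries. The 6 genes summed to at most 1.36 FPKM in every CON-post library, and to 24.4, 6.37, 17.8 and 0.346 FPKM in CON-pre, 18, 0.300, 1.06 and 28.6 in HFD-pre and 32.5, 1.01, 3.34 and 0.741 in HFD-post. The highest sum was in HFD-post replicate 1, the library with the highest Ppara (5.26 FPKM), although HFD-pre replicate 4, with the next highest sum, had 3.43 FPKM of Ppara. Over the 16 libraries the liver score correlated at 0.18 with Ppara.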
